A study of Mus musculus with 9 samples.

Results

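Genes for making ribosomes in the nucleolus were examined in germinal center B cells of mouse spleen, as a list of 42 named genes. They were picked by gene symbol, and 41 of the 42 had an entry among the 23700 of each gene table (Noc2l was not analysed here). All 41 passed the filter on low values, which kept 10004 genes. The study is about the role of Foxo1, a transcription factor, in these cells, and it has 9 RNA libraries in 3 groups of 3. Foxo1-deficient cells came from Foxo1(f/f) donors and were collected without gating on a zone. Wild-type (Foxo1(+/+)) cells were split by surface CD86 and CXCR4. Those low in CD86 and high in CXCR4 are the dark zone group (DZ), and those with the opposite levels are the light zone group (LZ). Donor cells of all groups carried 1 copy each of ERT2cre, a recombinase switched on by tamoxifen, and of B1-8hi, a knocked-in antigen receptor chain for the hapten NP. Both kinds of donor B cell were put together, in equal parts, into C57BL/6 recipients that were immunized with NP-CGG in alum. Tamoxifen was given by mouth on each day from day 7 to day 9, so wild-type cells met the drug and the recombinase too. On day 12, B220+ NP+ GL7+ CD38- cells were sorted. The Foxo1(f/f) cells have the genotype CD45.1/2 in the labels but a CD45.2-negative gate, and these entries are at odds. Whether replicates are separate animals is not stated in the labels, so each p-value reflects only how far these libraries spread, which may be technical.

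Ribosomes are assembled in the nucleolus, where RNA polymerase I transcribes the ribosomal DNA into a long precursor RNA. Box C/D and box H/ACA snoRNPs, particles of small nucleolar RNAs and proteins, modify that RNA by methylation and pseudouridylation, and many processing factors cut and fold it into the small and the large subunit. The transcription factor Myc is known as a driver of this programme, and in germinal centers a part of the light zone B cells switches Myc on after antigen and T cell help. Myc binds with its partner Max to the E-box sequence CACGTG, which reads the same on both strands.

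Because Myc is the regulator best known for these genes, the promoter stretches around that sequence are shown for the 6 members that held it. Windows ran from 250 bases before to 50 bases after the start site (RefSeq, build GRCm38.p6), and 35 of the 41 members had one. Each line gives the strand of the gene, with CACGTG in capitals and up to 10 bases on either side.
Imp4, chr1:34439698-34439723, plus strand: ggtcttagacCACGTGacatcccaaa
Nop2, chr6:125131813-125131838, plus strand: gtccctggatCACGTGtgttccggtg
Utp20, chr10:88826765-88826787, minus strand: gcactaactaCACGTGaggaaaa
Pes1, chr11:3963967-3963992, plus strand: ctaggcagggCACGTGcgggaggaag
Mybbp1a, chr11:72441357-72441376, plus strand: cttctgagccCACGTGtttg
Wdr43, chr17:71616222-71616247, plus strand: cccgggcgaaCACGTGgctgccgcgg
The share with CACGTG was 17.1% of the members with a window (6 of 35). It was 22.3% of other ribosome biogenesis genes (23 of 103), 12.4% of all tested genes (885 of 7136) and 8.09% of all genes of the promoter table (2187 of 27025). A match is a string of letters in a window and does not show binding.

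Expression was given as FPKM, a fragment number set per transcript length and per library size, so levels of different genes are set per length. Between 11229 and 12495 entries of a library were above 0. The confidence bounds in the tables gave a rough relative depth of 0.83 to 1.10 for the libraries. Replicates correlated across the tested genes at Pearson's r of 0.868 to 0.915 in Foxo1-deficient, 0.938 to 0.942 in DZ and 0.905 to 0.912 in LZ libraries, as a description over genes that are not independent. Foxo1 itself was at 3.01, 1.79 and 0.808 FPKM in Foxo1-deficient, 24.5, 19.5 and 19.1 in DZ and 14.8, 18.7 and 22.1 in LZ libraries. It was lower in Foxo1-deficient cells than in both zones by limma (adjusted p = 0.00113 against LZ and 0.000542 against DZ). Of 13 listed germinal center B cell markers, 12 had an entry, and their summed FPKM was 2132.3 to 2525.0 in Foxo1-deficient, 1756.7 to 2095.2 in DZ and 2086.6 to 2329.4 in LZ libraries. Except for those of T cells, which summed highest in LZ libraries, the listed markers of other cells summed highest in the Foxo1-deficient libraries. Neutrophil and macrophage markers (18 of 20 with an entry) summed to 164 to 344 FPKM there, against 0.655 to 5.33 in DZ and 2.14 to 6.63 in LZ libraries, with Cd14, Mpo and Elane listed at 0 in all. Erythroid markers (9 of 11) summed to 175 to 565 FPKM in Foxo1-deficient, 13.2 to 25.4 in DZ and 21.9 to 47.1 in LZ libraries. T cell markers (11 of 12) summed to 15.4 to 25.6, 13.2 to 20.7 and 28.0 to 32.6 FPKM in Foxo1-deficient, DZ and LZ libraries, with Cd3e, Cd3g and Cd4 listed at 0 in all. Plasma cell markers (7 of 9) summed to 330 to 506 FPKM in Foxo1-deficient, 198 to 317 in DZ and 128 to 167 in LZ libraries, with no overlap between groups. Of the 5 tested, Igj was called higher in DZ, and Igj and Slpi in Foxo1-deficient cells, both against LZ. Not all of the 5 moved with the sums. Their DZ minus LZ differences ran from -1.44 to 1.8 with a median of 0.08, and 2 were negative. Those of Foxo1-deficient minus LZ ran from -0.49 to 4.2 with a median of 0.18, and 1 was negative. With voom weights on implied fragment numbers, Irf4 was called lower and Igj higher in DZ against LZ. Stromal markers (9 of 9) summed to 12.9 to 19.6 FPKM in Foxo1-deficient, 4.22 to 5.1 in DZ and 8.91 to 12.3 in LZ libraries, with Col1a1, Col3a1 and Pdgfra listed at 0 in all, and Pecam1, the one tested, was called higher in Foxo1-deficient cells than in DZ. The part of the T cell, plasma cell and stromal markers in the members' values was not tested.

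The members were at their highest in the light zone. Their FPKM values summed to 1006.7, 1035.2 and 1007.2 FPKM in Foxo1-deficient, 1007.6, 1001.9 and 811 FPKM in DZ, and 1432.3, 1609.0 and 1405.6 FPKM in LZ libraries. The LZ sums lay above all others, while the Foxo1-deficient and DZ sums overlapped. Npm1 alone made up between 29.2% and 34.3% of these sums. Without it the sums were 689, 712 and 706 FPKM in Foxo1-deficient, 665, 706 and 532 FPKM in DZ, and 1014.4, 1086.8 and 971 FPKM in LZ libraries, in the same order. In DZ replicate 3 the mean log2(FPKM + 1) was the lowest of the 9 libraries over the members (3.59) and over all tested genes (2.89). Set against the mean of all tested genes in the same library, the members' mean stood higher by 0.65, 0.70 and 0.76 in Foxo1-deficient, 0.69, 0.81 and 0.70 in DZ, and 1.21, 1.25 and 1.24 in LZ libraries. With each library set against its own mean, DZ replicate 3 lay within the other DZ libraries.

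**Figure D1:**
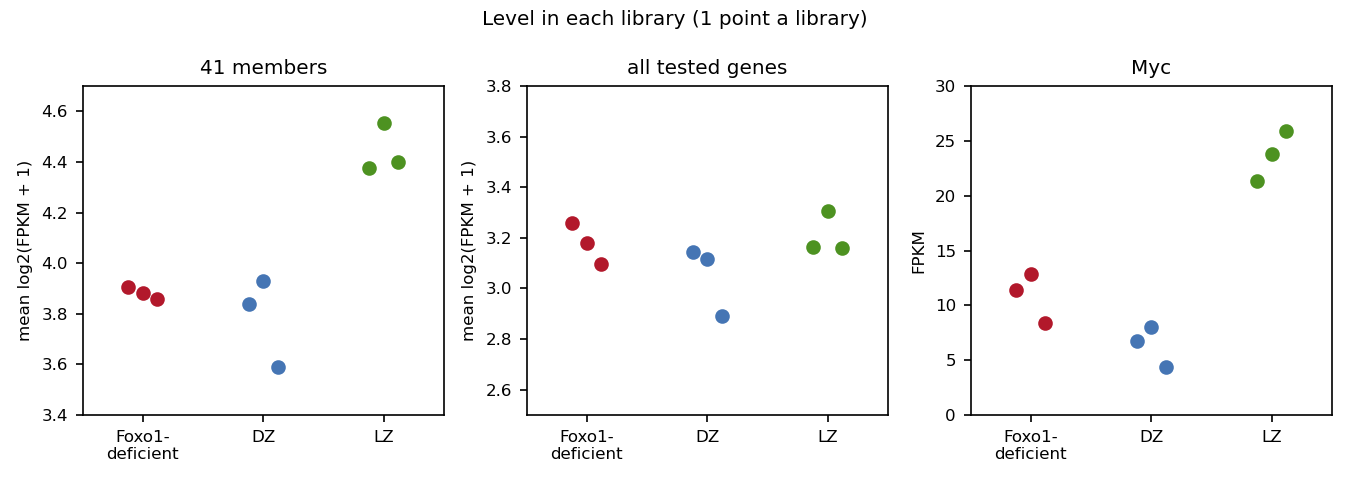
Mean log2(FPKM + 1) over the 41 members (left) and over the 10004 tested genes (middle), and the FPKM of Myc (right), with 1 point a library; the log2 axes do not start at 0 but span the same range. The members' means lie between 3.59 and 3.93 in Foxo1-deficient and DZ libraries and between 4.38 and 4.55 in LZ libraries, while the means of all tested genes lie closer, at 3.10 to 3.26, 2.89 to 3.15 and 3.16 to 3.31 in Foxo1-deficient, DZ and LZ libraries, with every DZ library below every LZ library there too.

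By group means, LZ was the highest of the 3 groups for 35 of the 41 members (85.4%), against 40.9% of all tested genes. Foxo1-deficient cells had the highest mean for 5 members and DZ cells for 1, and LZ had the lowest mean for none. DZ had the lowest mean for 27 members (65.9%, against 49.0% of all tested genes), and Foxo1-deficient cells lay in the middle for 22 (53.7%, against 32.5%). These are counts of means, and neighbours in the order often did not differ beyond their spread. The members lie on 18 chromosomes, with 7 on chromosome 1.

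**Figure D2:**
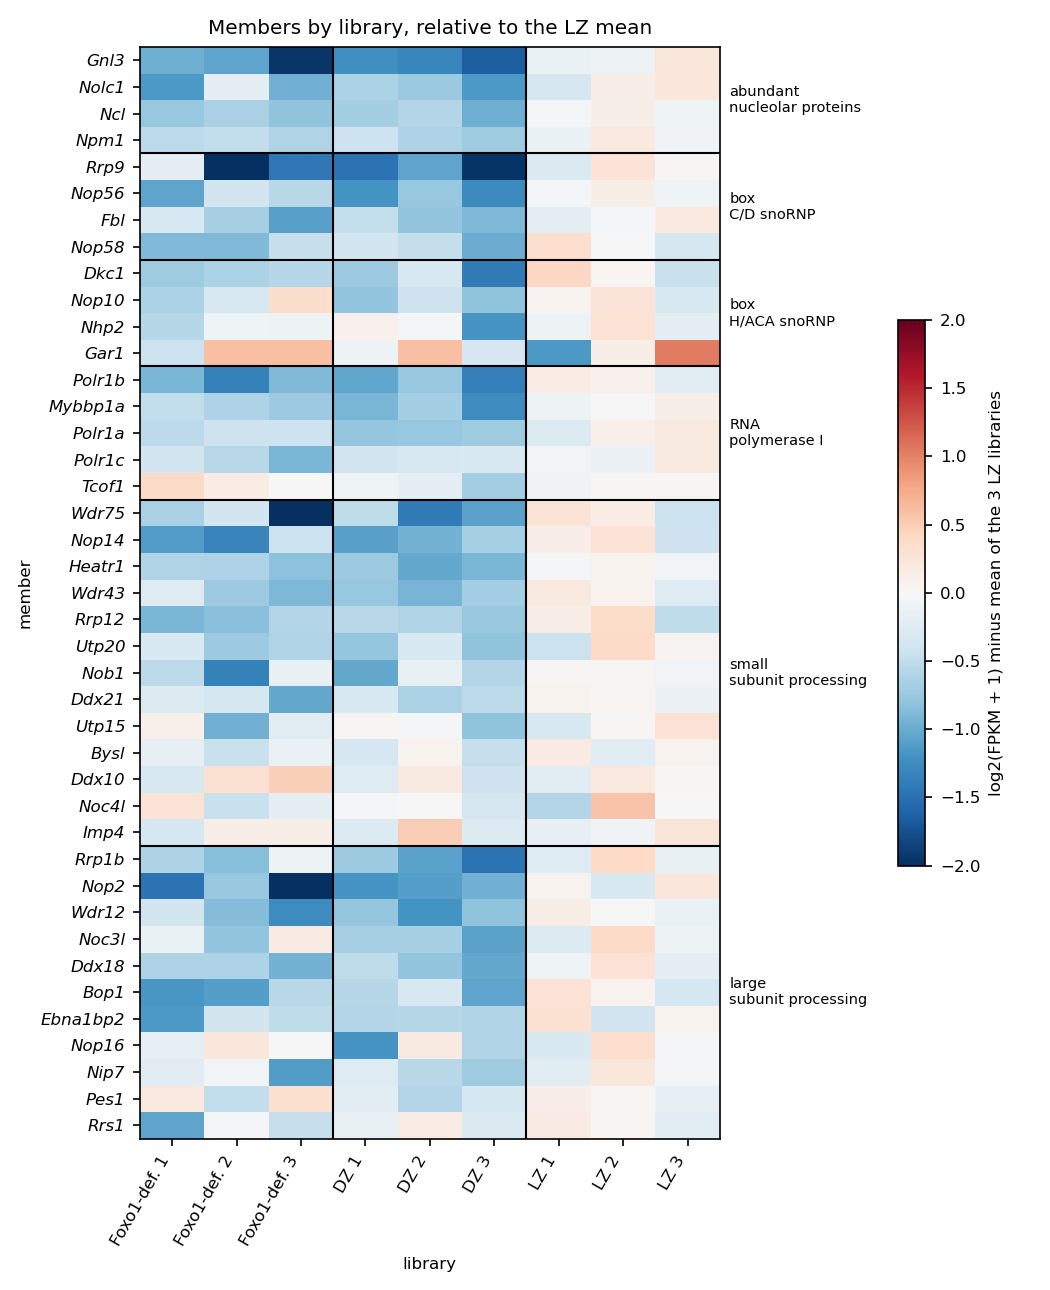
Log2(FPKM + 1) of each of the 41 members (rows, grouped by role) in each of the 9 libraries (columns), minus the mean of the 3 LZ libraries, with blue for lower and red for higher values; the colours end at -2 and 2. Most rows are blue in the Foxo1-deficient and DZ columns, and 31, 29 and 28 members in Foxo1-deficient and 36, 29 and 39 members in DZ libraries lay below the lowest LZ library.

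Between the wild-type zones, DZ against LZ, 4 members fell in DZ and none rose. They were Ncl, Nop56, Mybbp1a and Gnl3, out of a background in which 1.94% of all tested genes passed the test in either direction and 1.38% passed as lower (limma, Benjamini-Hochberg adjusted p under 0.05 over 10004 genes). The 4 called members are 9.76% of the 41. The difference was negative for 40 of 41 members (97.6%, against 65.0% of all tested genes). The members' median was -0.65 on the log2(FPKM + 1) scale and the range -1.50 to 0.05, beside a median of -0.15 over all tested genes. At an unadjusted p under 0.05, 24 members (58.5%) were lower and 0 higher, against 11.7% lower over all tested genes. In 29 members (70.7%) every DZ library lay below every LZ library, against 17.1% of all tested genes. Of 20 mitosis genes, 6 rose in DZ, and their summed FPKM was 637 to 759 in DZ and 395 to 460 in LZ libraries. The 20 S phase genes summed to 1058.7 to 1231.7 FPKM in DZ and 1020.9 to 1112.2 FPKM in LZ libraries, with 0 called by limma or with voom weights and 3 at an unadjusted p under 0.05. The part of these cell cycle differences in the members' levels was not tested. In bulk samples, fewer cells with a high level and less RNA per cell cannot be told apart.

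The 4 calls rest on few libraries. No member was called without any 1 of the 3 LZ libraries or without DZ replicate 1 or 3, and 2 were called without DZ replicate 2. The number of all genes called was 72 to 86 without 1 of these 6 libraries, against 194 with all. The members' median kept its sign and stayed between -0.77 and -0.58 without any 1 library.

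Foxo1-deficient cells were next set against LZ. Ncl and Gnl3 fell and no member rose, where 1.56% of all tested genes passed in either direction and 0.87% as lower. The 2 calls are 4.88% of the members. The difference was negative for 36 of 41 members (87.8%, against 52.0% of all tested genes). The members' median was -0.61 and the range -1.53 to 0.26, beside an all-gene median of -0.02. At an unadjusted p under 0.05, 23 members (56.1%) were lower and 0 higher, against 7.64% lower over all tested genes. In 21 members (51.2%) every Foxo1-deficient library lay below every LZ library, against 9.37% of all tested genes. Genotype and gate change together wherever Foxo1-deficient cells are compared with a zone. Both comparisons with LZ use the same 3 LZ libraries, so neither is a check on the other. The neutrophil, macrophage and erythroid markers given above move with this contrast, with 7 of 8 and 5 of 6 tested markers higher in Foxo1-deficient cells (0 and 1 with voom weights), and their part in the members' values was not tested. In Foxo1-deficient libraries the mitosis genes summed to 536 to 619 FPKM, above LZ and below DZ. The S phase genes summed to 804 to 1012.3 FPKM there, below both zones. None of these genes was called against LZ by limma, and Cenpf was called higher with voom weights. The part of these cell cycle genes was not tested. No member was called without Foxo1-deficient replicate 3, DZ replicate 1 or 2 or any 1 of the LZ libraries, and 1 was called without Foxo1-deficient replicate 2.

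Foxo1-deficient cells against DZ gave no called member by limma, and none with voom weights on fragment numbers implied by the tables, in a comparison in which 2.85% of all tested genes passed. The same markers differ here too (8 of 8 and 5 of 6 higher in Foxo1-deficient cells, and 0 and 1 with voom weights), and their part was not tested. Of the 20 S phase genes, Mcm6 was called lower in Foxo1-deficient cells than in DZ, and Mcm3, Mcm6 and Mcm7 with voom weights. No mitosis gene was called, and the part of these genes was not tested. The members' differences were centred near 0, with a median of 0.05 and a range of -0.44 to 0.57, beside an all-gene median of 0.12. At an unadjusted p under 0.05, Tcof1 was higher and none was lower, against 16.3% of all tested genes in either direction. The groups did not overlap for 3 members (Polr1c lower, Tcof1 and Polr1a higher), against 23.1% of all tested genes. The median standard error of a member was 0.27, so a difference of a size often seen against LZ could still be missed for a single gene. For Npm1 and Ncl, the members with the smallest standard errors, the interval did not reach a difference as large as that from LZ. The 95% interval of Foxo1-deficient minus DZ ran from -0.25 to 0.33 for Npm1 and from -0.32 to 0.34 for Ncl. The intervals of Mybbp1a (-0.055 to 0.732) and Polr1c (-0.692 to 0.138) did reach such a size.

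**Figure D3:**
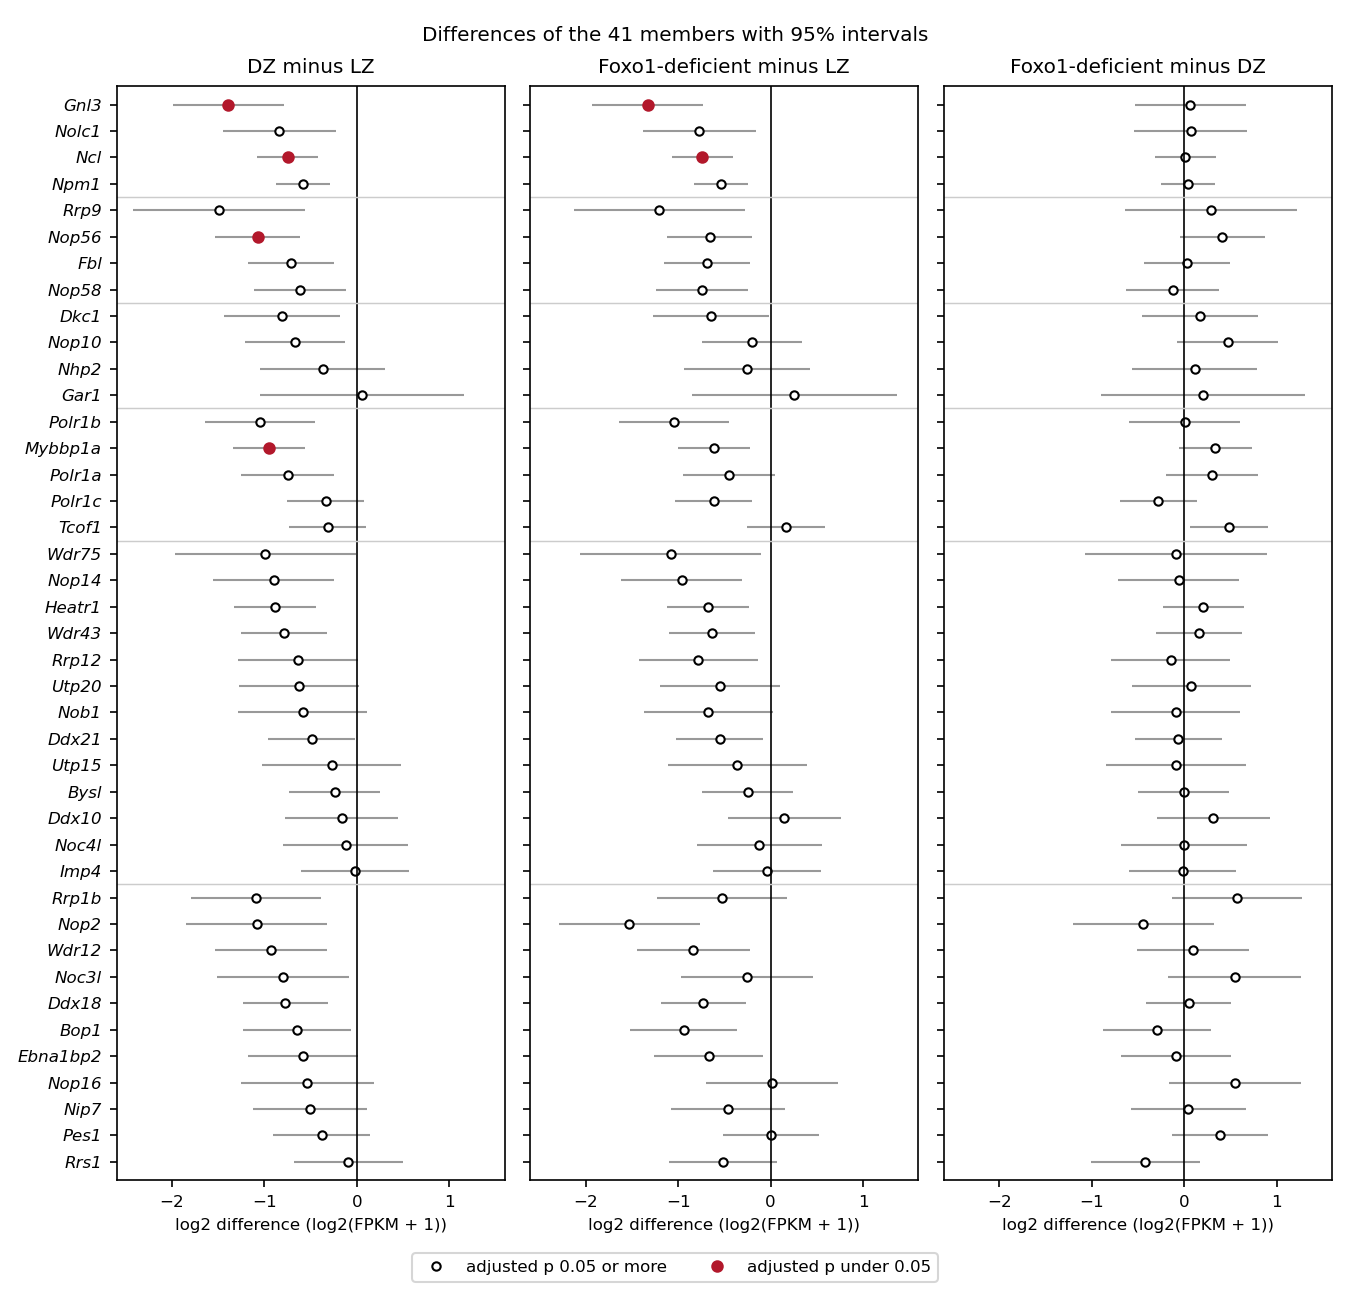
Log2 difference (points) with its 95% interval from limma (lines) for each of the 41 members, grouped by role, for DZ minus LZ, Foxo1-deficient minus LZ and Foxo1-deficient minus DZ; filled red points have an adjusted p under 0.05. Filled points are Gnl3, Ncl, Nop56 and Mybbp1a on the left, Gnl3 and Ncl in the middle and none on the right, where the points lie around 0.

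Of the 4 genes grouped as abundant nucleolar proteins (a name, not a ranking by FPKM), Ncl and Gnl3 fell in both Foxo1-deficient and DZ cells against LZ. Ncl encodes nucleolin, a major RNA-binding protein of the nucleolus, and lies on chromosome 1 (mm9, 88241294 to 88256030). Its FPKM was 52.2, 56.6 and 51.0 in Foxo1-deficient, 55.3, 59.2 and 45 in DZ and 88.0, 96.9 and 83.8 in LZ libraries. All 6 Foxo1-deficient and DZ values lay below the lowest LZ value, and those of Foxo1-deficient and DZ libraries overlapped. Ncl fell by 0.75 in DZ against LZ (SE 0.15, adjusted p = 0.033, limma) and by 0.74 in Foxo1-deficient cells against LZ (adjusted p = 0.0384). Gnl3, or nucleostemin, is a GTP-binding protein known from stem and dividing cells that takes part in processing for the large subunit (chromosome 14, 31825619 to 31832275). Its FPKM was 14.0, 13.3 and 6.64 in Foxo1-deficient, 11.6, 11 and 8.43 in DZ and 26.0, 26.6 and 33.7 in LZ libraries. It had the largest change of the called members, with differences from LZ of -1.39 in DZ (SE 0.27, adjusted p = 0.0289) and -1.33 in Foxo1-deficient cells (adjusted p = 0.0391).

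Npm1, or nucleophosmin, a chaperone of ribosome assembly, was the most abundant member (chromosome 11, 33052498 to 33063206). Its FPKM was 317, 324 and 301 in Foxo1-deficient, 343, 296 and 278 in DZ and 418, 522 and 434 in LZ libraries. The groups did not overlap against LZ, but the differences missed the threshold (-0.58 in DZ, adjusted p = 0.0521, and -0.54 in Foxo1-deficient cells, adjusted p = 0.0774). Npm1 was past it for DZ under quantile normalization (adjusted p = 0.0211) and with the replicate number as a block (0.0443), and for Foxo1-deficient cells under quantile normalization (0.0401) and median centring (0.0246). Nolc1, a chaperone of snoRNPs, averaged 15.2 ± 6.07 FPKM in Foxo1-deficient, 14.0 ± 2.73 in DZ and 25.9 ± 5.27 in LZ cells (SD, n = 3 each) and passed in no comparison.

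Among the 4 box C/D snoRNP genes, whose products methylate the ribosomal RNA, Nop56 fell in DZ. Nop56 is a core scaffold protein of these particles (chromosome 2, 130100148 to 130105049). Its FPKM was 29.4, 48.0 and 42 in Foxo1-deficient, 26.5, 36.5 and 25.2 in DZ and 60.7, 67.9 and 58.4 in LZ libraries. All LZ values were above all others, and the Foxo1-deficient values reached higher than those of DZ but overlapped them. Nop56 fell by 1.07 in DZ against LZ (SE 0.21, adjusted p = 0.0287). In Foxo1-deficient cells the difference from LZ was -0.66 (adjusted p = 0.178), and that from DZ was 0.42 (adjusted p = 0.364), so no difference between the Foxo1-deficient and DZ levels was shown. This call was also lost with no filter on low values and with voom weights (adjusted p up to 0.148 over 16 alternatives).

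Fbl, or fibrillarin, the methyltransferase of the box C/D particle, was at 51.3, 40.2 and 29.8 FPKM in Foxo1-deficient, 45.8, 36.7 and 34.0 in DZ and 56.7, 62.8 and 73.7 in LZ libraries. No library of the other groups reached the lowest LZ value, but no difference passed (adjusted p = 0.131 for DZ and 0.167 for Foxo1-deficient cells, both against LZ). Nop58, the partner of Nop56, averaged 34.9 ± 6.36 FPKM in Foxo1-deficient, 38.4 ± 8.44 in DZ and 59.5 ± 13.9 in LZ cells and passed in no comparison. Rrp9, a protein of the particle that guides early cuts for the small subunit, had the largest DZ minus LZ difference of all members. Its FPKM was 13.6, 3.12 and 5.13 in Foxo1-deficient, 4.94, 6.93 and 3.25 in DZ and 12.5, 18.9 and 15.7 in LZ libraries. Foxo1-deficient replicate 1 lay within the LZ range and the other 2 far below it. The differences of -1.50 in DZ (adjusted p = 0.116) and -1.20 in Foxo1-deficient cells (adjusted p = 0.229) did not pass, but without Foxo1-deficient replicate 1 both did (-1.50, adjusted p = 0.0474, and -1.71, adjusted p = 0.0424).

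The box H/ACA snoRNP genes, whose products turn uridines of the ribosomal RNA into pseudouridines, held no call in any comparison, by limma or with voom weights, and had the smallest median differences from LZ of the 6 roles. At an unadjusted p under 0.05, 2 of the 4 were lower in DZ and 1 of the 4 in Foxo1-deficient cells, both against LZ. Over all tested genes, 11.7% and 7.64% were lower in the same comparisons. The median of this role was -0.52 for DZ minus LZ and -0.23 for Foxo1-deficient minus LZ over 4 genes. Dkc1, the pseudouridine synthase, averaged 21.5 ± 1.18 FPKM in Foxo1-deficient, 19.9 ± 7.41 in DZ and 35.1 ± 10.5 in LZ cells. Nop10, a small subunit of the particle, was at 52.5, 65.2 and 105 FPKM in Foxo1-deficient, 46.9, 60.9 and 46.5 in DZ and 84.9, 97.7 and 66.2 in LZ libraries. The Foxo1-deficient values of Nop10 overlapped those of both zones. Gar1, another subunit, was the one member with a higher mean log2 level in DZ than in LZ. It was at 5.69, 12.6 and 12.7 FPKM in Foxo1-deficient, 7.40, 12.6 and 6.09 in DZ and 3.06, 8.71 and 17.4 in LZ libraries, with all groups overlapping and the widest standard error of the members (0.50). Nhp2, the remaining subunit, averaged 34.5 ± 6.44, 33.7 ± 14.1 and 41.3 ± 7.60 FPKM in Foxo1-deficient, DZ and LZ cells. The FPKM of Nop10 lay above the upper bound of its own interval in all 9 libraries, that of Fbl in 6 and that of Nhp2 in 2, so their levels are less certain than those of the other members.

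In the group of RNA polymerase I and ribosomal DNA transcription, Mybbp1a fell in DZ, and Tcof1 had its highest mean in Foxo1-deficient cells. Mybbp1a is a nucleolar protein that binds Myb and is known to act on ribosomal DNA transcription and RNA processing (chromosome 11, 72254880 to 72265052 on mm9). Its FPKM was 35.9, 33.0 and 30.3 in Foxo1-deficient, 26.5, 31.3 and 20.8 in DZ and 47.3, 50.5 and 55.3 in LZ libraries. Mybbp1a fell by 0.95 in DZ against LZ (SE 0.18, adjusted p = 0.0255), the smallest adjusted p of the members, and in Foxo1-deficient cells the difference of -0.61 did not pass (adjusted p = 0.147). The catalytic subunits Polr1a and Polr1b were measured at low levels. Polr1b averaged 4.02 ± 0.863 FPKM in Foxo1-deficient, 4.02 ± 1.05 in DZ and 9.32 ± 1.38 in LZ cells, with both groups below all LZ libraries (adjusted p = 0.0941 and 0.0875, in that order of groups). Polr1a averaged 6.31 ± 0.33 FPKM in Foxo1-deficient, 4.93 ± 0.144 in DZ and 9.06 ± 1.61 in LZ cells, a graded order with no overlap that passed in no comparison (adjusted p = 0.144 to 0.56). Polr1c, a subunit shared by RNA polymerases I and III, averaged 16.6 ± 3.14 FPKM in Foxo1-deficient, 20.1 ± 0.583 in DZ and 25.8 ± 2.90 in LZ cells and passed in no comparison.

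Tcof1 encodes treacle, which recruits RNA polymerase I to the ribosomal DNA. It was at 52.6, 44.4 and 39.8 FPKM in Foxo1-deficient, 37.9, 35.4 and 24.5 in DZ and 38.3, 41.4 and 41 in LZ libraries. Foxo1-deficient values lay above all DZ values and overlapped those of LZ. The difference from DZ was 0.49 (95% interval 0.07 to 0.91, adjusted p = 0.234) and did not pass over all genes.

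**Figure D4:**
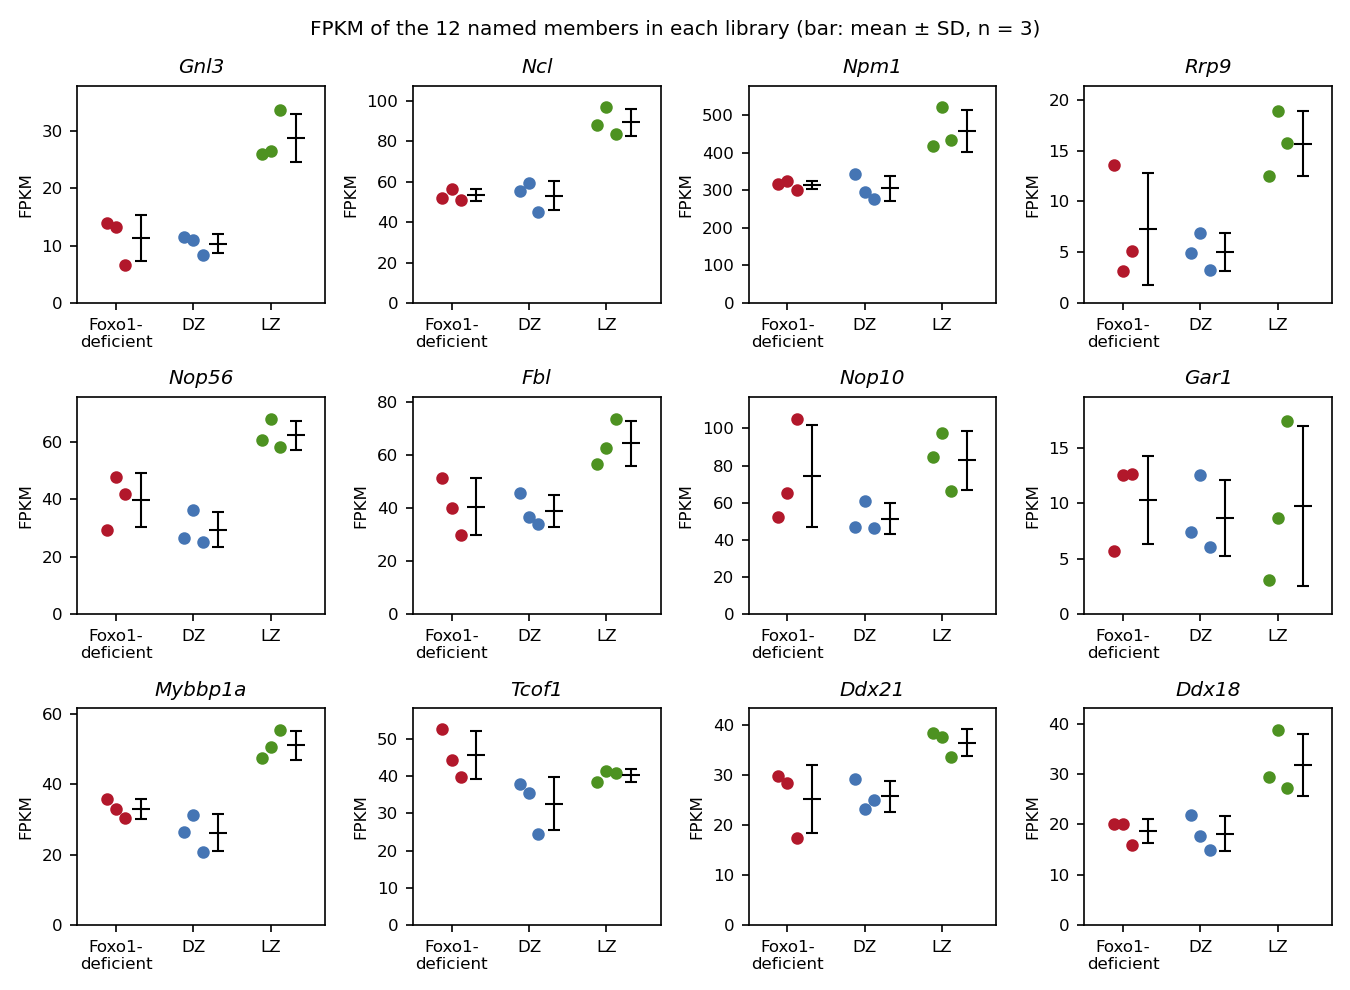
FPKM of 12 members in each library (points, 3 a group, in Foxo1-deficient, DZ and LZ order) with the mean and SD of the group beside them (bars); each panel has its own axis, which starts at 0. LZ points of Gnl3, Ncl, Npm1, Nop56, Fbl, Mybbp1a, Ddx21 and Ddx18 lie above all others, those of Gar1 and Nop10 do not, and the Foxo1-deficient points of Tcof1 lie above those of DZ.

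The processing factors of the small subunit held no called member of 13 in any comparison. At an unadjusted p under 0.05, 5, 6 and 0 of them were lower for DZ against LZ, Foxo1-deficient against LZ and Foxo1-deficient against DZ. These are 38.5%, 46.2% and 0% of the role, against 11.7%, 7.64% and 4.78% of all tested genes. All 13 had a lower mean log2(FPKM + 1) in DZ than in LZ, as did 65.0% of all tested genes. The median difference of the 13 was -0.58, with a range of -0.99 to -0.02. In 7 (53.8%, against 17.1% of all tested genes) every DZ library lay below every LZ library. Heatr1, a scaffold of the earliest precursor particle, was the closest to a call. It averaged 8.67 ± 0.794 FPKM in Foxo1-deficient, 7.37 ± 0.902 in DZ and 14.4 ± 0.711 in LZ cells, with no overlap against LZ (adjusted p = 0.152 for Foxo1-deficient cells and 0.052 for DZ). With voom weights Heatr1 was called lower in DZ, the single call of this role there. Wdr43 and Wdr75, which act with Heatr1 in the same early complex, differed by -0.79 (adjusted p = 0.0992) and -0.99 (adjusted p = 0.317) in DZ. Utp15, of that complex too, differed by -0.27 with overlapping groups. Ddx21, an RNA helicase of ribosomal DNA transcription and processing, had the highest level of this role. It was at 29.9, 28.4 and 17.5 FPKM in Foxo1-deficient, 29.3, 23.2 and 25.1 in DZ and 38.5, 37.6 and 33.6 in LZ libraries, with no overlap against LZ and no call (adjusted p = 0.279 for Foxo1-deficient cells and 0.298 for DZ).

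The other factors of the small subunit varied. Nop14 differed by -0.90 between DZ and LZ and Nob1, the endonuclease that makes the last cut of the small subunit RNA, by -0.58, each with no overlap but no call (adjusted p = 0.174 and 0.429). Rrp12 and Utp20 had differences of -0.64 and -0.63. Bysl, Ddx10, Noc4l and Imp4 had DZ minus LZ differences of -0.24, -0.17, -0.12 and -0.02, all with overlapping groups. Imp4 averaged 12.1 ± 2.37 FPKM in Foxo1-deficient, 12.5 ± 4.45 in DZ and 12.4 ± 2.03 in LZ cells, the flattest level of the members across the groups. Its 95% intervals still spanned differences of up to about 0.6 in either direction.

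Of the 11 tested genes grouped under large subunit processing, none was called in any comparison. Gnl3 was counted above with the abundant nucleolar proteins and not here. At an unadjusted p under 0.05, 6, 5 and 0 of the 11 were lower in the same 3 comparisons. These are 54.5%, 45.5% and 0% of the role, against 11.7%, 7.64% and 4.78% of all tested genes. The median difference was -0.65 for DZ minus LZ and -0.52 for Foxo1-deficient minus LZ. Pes1, Bop1 and Wdr12 form 1 complex of large subunit maturation. All 3 had a lower mean in DZ than in LZ, but the place of the Foxo1-deficient mean differed among them. Wdr12 averaged 5.52 ± 2.03 FPKM in Foxo1-deficient, 4.96 ± 0.924 in DZ and 10.3 ± 0.952 in LZ cells. Bop1 averaged 11.9 ± 3.15 FPKM in Foxo1-deficient, 14.9 ± 3.86 in DZ and 23.7 ± 5.45 in LZ cells. Pes1 averaged 19.9 ± 5.72 FPKM in Foxo1-deficient, 14.6 ± 2.03 in DZ and 19.3 ± 2.08 in LZ cells, so its Foxo1-deficient mean was at the level of LZ. No difference of these 3 genes passed.

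Nop2, a methyltransferase of the large subunit RNA, had the largest Foxo1-deficient minus LZ difference of the members. It averaged 7.30 ± 4.31 FPKM in Foxo1-deficient, 9.23 ± 0.79 in DZ and 20.9 ± 3.91 in LZ cells, and both groups lay below all LZ libraries with no call (-1.53, adjusted p = 0.0568, for Foxo1-deficient cells and -1.09, adjusted p = 0.161, for DZ). With voom weights it was called lower in Foxo1-deficient cells, and no other of these 11 genes was called in any comparison. Ddx18, an RNA helicase, had the highest mean level of this role. It was at 20.2, 20.05 and 15.9 FPKM in Foxo1-deficient, 21.9, 17.8 and 14.9 in DZ and 29.4, 38.7 and 27.2 in LZ libraries, again with no overlap against LZ and no call (adjusted p = 0.14 for Foxo1-deficient cells and 0.101 for DZ). Rrp1b, Noc3l and Nop16 had means in Foxo1-deficient cells that lay above those in DZ by 0.57, 0.55 and 0.55 on the log2 scale, with adjusted p from 0.418 to 0.448. Ebna1bp2, Nip7 and Rrs1 differed between DZ and LZ by -0.59, -0.51 and -0.09 and passed in no comparison.

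Genes outside the list with the same kind of function had a smaller median difference between DZ and LZ. Both sets were chosen with earlier results of these data known, and the part of that choice was not tested. Of 137 further ribosome biogenesis genes in 5 lists (snoRNP assembly, RNA polymerase I, small and large subunit processing, RNA exosome), 127 were tested. Their median difference for DZ minus LZ was -0.34, and 105 were negative (82.7%, against 65.0% of all tested genes). In that comparison 2 fell (1.57%, close to the 1.38% of all tested genes), 0 rose and 31 were lower at an unadjusted p under 0.05 (24.4%, against 11.7% of all tested genes). By list, the medians were -0.38 over 43 small subunit, -0.43 over 43 large subunit, -0.24 over 14 snoRNP, -0.13 over 12 RNA polymerase I and -0.06 over 15 exosome genes, where all tested genes had -0.15. The 2 called genes were Mdn1, a large ATPase that remodels large subunit precursors, and Lyar, a nucleolar zinc finger protein. Mdn1 was at 5.77, 6.81 and 7.79 FPKM in Foxo1-deficient, 3.63, 2.95 and 2.09 in DZ and 6.29, 11.4 and 7.73 in LZ libraries. It fell by 1.27 in DZ against LZ (adjusted p = 0.0493), while the Foxo1-deficient values overlapped those of LZ and lay above all DZ values (1.01, adjusted p = 0.095). Lyar was at 13.7, 17.0 and 15.9 FPKM in Foxo1-deficient, 14.9, 11.4 and 11.3 in DZ and 26.1, 23.4 and 20.9 in LZ libraries, and fell by 0.86 in DZ (adjusted p = 0.0493). With voom weights the 2 calls were Mdn1 and Pdcd11, a small subunit factor, and not Lyar. Foxo1-deficient minus LZ gave no call, with a median of -0.28. At an unadjusted p under 0.05, 20 genes were lower (15.7%, against 7.64% of all tested genes). Foxo1-deficient minus DZ gave no call, with a median of 0.06. There 1 was lower and 7 higher of 127 at that p, against 16.3% of all tested genes in either direction. With voom weights these 2 comparisons gave no call and 1, Mdn1, higher in Foxo1-deficient cells than in DZ.

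**Figure D5:**
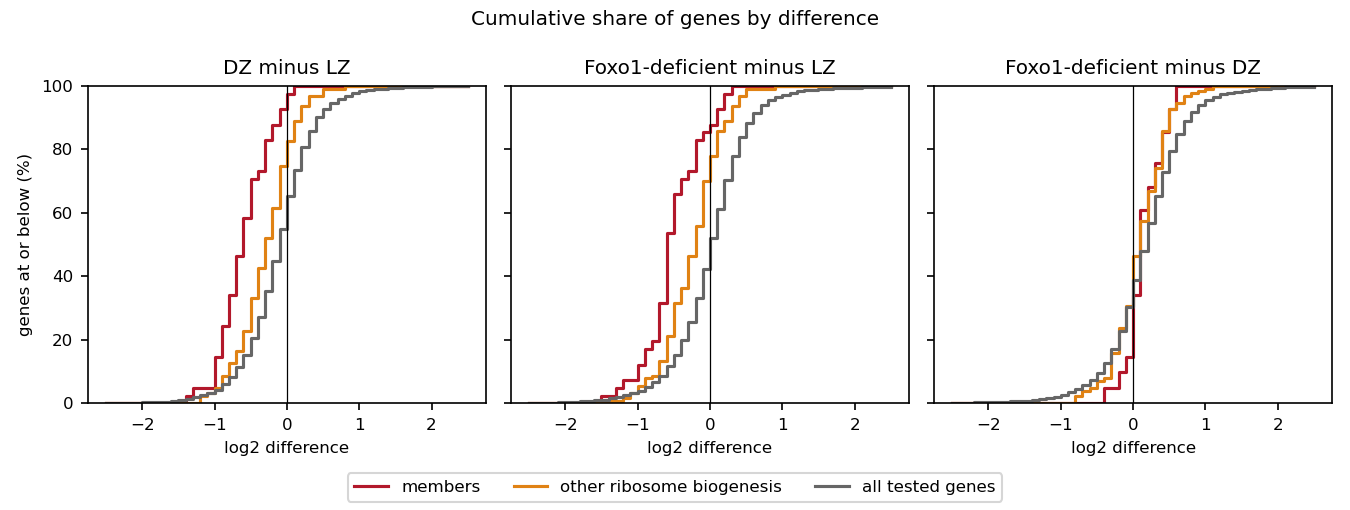
Cumulative share of genes (vertical axis, percent) at or below each log2 difference (horizontal axis), for the 41 members, 127 other ribosome biogenesis genes and 10004 tested genes. For DZ minus LZ and Foxo1-deficient minus LZ the members' curve lies left of the other genes' over most of its range, and for Foxo1-deficient minus DZ the curves cross near 0; the medians of the members are -0.65, -0.61 and 0.05.

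Myc differed between the zones more than any of the 41 members did. It was at 11.4, 12.8 and 8.38 FPKM in Foxo1-deficient, 6.72, 8.06 and 4.35 in DZ and 21.4, 23.8 and 25.9 in LZ libraries. The 3 groups did not overlap, with Foxo1-deficient cells in the middle. Myc fell by 1.77 in DZ against LZ (adjusted p = 0.00641), while the differences of -1.07 from LZ (adjusted p = 0.064) and 0.70 from DZ (adjusted p = 0.188) in Foxo1-deficient cells did not pass; with voom weights the difference from LZ did. Max was at 38.0, 24.7 and 25.1 FPKM in Foxo1-deficient, 30.2, 31.2 and 22.2 in DZ and 20.1, 25.7 and 35.5 in LZ libraries, with all groups overlapping. Of 8 tested genes of the Myc network, Myc was the one that passed, for DZ against LZ. The 6 members with CACGTG in the window printed above had a median DZ minus LZ difference of -0.71, and the 29 with a window but without it had -0.75. Their own differences spread widely, with -1.09 for Nop2, -0.95 for Mybbp1a, -0.79 for Wdr43, -0.63 for Utp20, -0.38 for Pes1 and -0.02 for Imp4.

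Several members also hold snoRNA genes inside their own gene, on the same strand. By the GENCODE M21 annotation (GRCm38, matched by symbol), 6 of the 41 members are such hosts (14.6%), against 161 of 8651 tested genes that could be matched (1.86%). The hosts are Nop56 with 5 snoRNA genes, Nop58 with 4, Ncl, Gnl3 and Wdr43 with 3 each and Dkc1 with 1. Ncl holds Snord82 and Gnl3 holds Snord19 and Snord69, so 3 of the 4 members called for DZ against LZ are hosts. The 6 hosts had a median DZ minus LZ difference of -0.80 and a range of -1.39 to -0.62, and the other 35 members had a median of -0.63. All 161 hosts, which include the 6 members, had a median of -0.14, close to that of all tested genes. Of the 161, 5 were called lower, 3 of them members, and 0 higher, where 1.38% of all tested genes were called lower. The snoRNAs themselves were not analysed here.

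Among replicates, the members varied about as much as other genes. The median SD of log2(FPKM + 1) over the members was 0.36 in Foxo1-deficient, 0.26 in DZ and 0.24 in LZ libraries, against 0.34, 0.28 and 0.32 over all tested genes in the same groups. Gar1 had the fewest fragments, with about 22 implied in its lowest library, while the median member had 162 and Npm1 up to 2889. No member was listed at 0 in any library.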

How the data were processed

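Total RNA of sorted cells was taken up in TRIzol and made into libraries with an NEBNext Ultra kit, per the labels' protocols. TopHat2 2.0.8, Cufflinks 2.1.1 and mm9 are named in the submitters' processing notes. Per the file headers, the authors deposited 1 gene table per library, with FPKM values and the bounds of their confidence interval. The scaling total and any bias correction are not given in the sources used here.

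Symbols that occurred more than once (716 entries) and 6 genes with a failed estimate were left out. Genes that reached an FPKM of 1 in 3 or more of the 9 libraries were tested with limma 3.58.1 (R 4.3.3) with an intensity trend on log2(FPKM + 1), all 9 libraries in 1 fit on group means, two-sided, Benjamini-Hochberg adjusted over 10004 genes within each of 3 comparisons. The scale understates changes of low genes. The fit was run on simulated data with independent noise and known falls in DZ, for DZ against LZ alone. Falls as small as those of most members were not simulated. Fragment numbers were estimated from the deposited interval bounds taken as 2 SD of a count, and used as voom weights in an alternative. Coordinates of genes are on mm9, from the files; RefSeq and GENCODE features are on GRCm38. Tables were joined with Python 3.11.15 and pandas 2.3.3.

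The members and all other lists were chosen with earlier results of these data known. Values in every library are given for called members, for the member with the highest mean of each role, and for those with the largest and smallest DZ minus LZ difference; Foxo1, Myc, Max and called genes of the other ribosome biogenesis lists are named too. Alternatives were a pseudocount of 0.1, no filter, median centring, quantile normalization, a fit of the compared groups alone, a replicate block, voom weights and leaving out each library. The labels used here name no batch.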

Additional observations from a re-analysis of the deposited data

How the results depend on the processing

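Of 16 alternatives, 10 kept the DZ against LZ call of Mybbp1a, 9 those of Nop56 and Gnl3 and 8 that of Ncl, and for Foxo1-deficient against LZ 7 kept Ncl and 5 Gnl3; all 6 kept their sign. The cause of these losses was not tested, but a fit without 1 library has fewer samples. For DZ against LZ, 109 genes were called with no filter and 122 in a fit of the compared groups alone, which called 2 members, against 194 and 4. The all-gene median of -0.15 became 0.04 under median centring, where the members' median was -0.46, and 0.01 under quantile normalization, where it was -0.55; relative to the all-gene median the members stood at -0.50, -0.50 and -0.56 as reported, centred and quantile normalized. With voom weights the members' median was -0.52 for DZ and -0.46 for Foxo1-deficient cells, both against LZ. For Foxo1-deficient against LZ, 99 genes and 1 member were called with a pseudocount of 0.1, 1 member with no filter, and 58 genes and 0 members in a fit of the compared groups alone, against 156 and 2. For Foxo1-deficient against DZ the members' median was -0.13 under median centring, against 0.05.

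With a replicate block, 5 members and 161 genes were called for DZ against LZ, 1 member and 137 genes for Foxo1-deficient against LZ, and 0 members and 221 genes for Foxo1-deficient against DZ. Same-numbered libraries deviated together by correlations of only -0.07 to 0.07, so the libraries share a number and no pairing was taken from it.

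Without 1 library, 72 to 210 genes and 0 to 4 members were called for DZ against LZ, with a members' median of -0.77 to -0.58, 48 to 145 genes and 0 to 2 members for Foxo1-deficient against LZ, and 127 to 246 genes for Foxo1-deficient against DZ, where the members' median ran from -0.061 to 0.15.

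Differences that changed sign were all in comparisons in which the gene was not called. For DZ minus LZ, Gar1 was -0.067 with voom weights and ran from -0.52 to 0.57 without 1 library. For Foxo1-deficient minus LZ, Nop10 ran from -0.48 to 0.016 and Gar1 from -0.32 to 0.78. For Foxo1-deficient minus DZ, median centring gave -0.11 for Gnl3, -0.17 for Ncl, -0.14 for Npm1, -0.14 for Fbl and -0.13 for Ddx18, quantile normalization -0.071 for Gnl3 and -0.031 for Ddx18, and voom weights -0.042 for Ncl and -0.015 for Npm1. Without 1 library these ran from -0.11 to 0.38 for Gnl3, -0.15 to 0.23 for Fbl, -0.079 to 0.18 for Ddx18, -0.22 to 0.69 for Rrp9, -0.10 to 0.092 for Ncl, -0.20 to 0.18 for Ddx21 and -0.022 to 0.13 for Npm1. Depth limits the low members most, since as few as 22 fragments were implied for Gar1 in a library.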
